A study of Homo sapiens with 6 samples.

Results

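The E2F transcription factors and their DP partners were followed as a family of 10 genes, E2F1 to E2F8, TFDP1 and TFDP2. They were picked by gene symbol from the 60609 genes counted in each library, and all 10 were found under a single gene identifier and tested. Poly(A) RNA came from K562 cells, an established human leukaemia line, in 6 libraries. In every library the endogenous EP400 gene, which encodes the ATPase and scaffold subunit of the TIP60 complex, carried a dTAG degradation tag, and all cells received 500 nM dTAGV-1 for 24 h to remove the tagged protein. A transgene at the AAVS1 locus supplied EP400 as the wild-type protein (WT, 3 libraries) or without the SANT and HD domains that hold the TRRAP module (Delta-TRRAP, 3 libraries). One clone of each complemented line was used, so clone and genotype cannot be told apart, and the spread between replicates does not include variation between clones.

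E2F proteins bind promoters of genes for DNA replication and cell division, and most of them do so as dimers with a DP protein. E2F1, E2F2 and E2F3 are known as activators that the retinoblastoma protein holds in check, whereas E2F4 and E2F5 act mainly as repressors together with the related pocket proteins p107 and p130. E2F6 represses without pocket proteins, in part within a polycomb complex, and E2F7 and E2F8 repress without a DP partner. TRRAP is a large scaffold through which TIP60 and other acetyltransferase complexes are recruited by transcription factors, E2F proteins among them, and the comparison asks how steady-state transcript levels depend on its attachment to TIP60.

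Most of the family was moderately lower in Delta-TRRAP. Of the 10 genes, 8 fell, with E2F5, E2F6 and E2F8 falling furthest, E2F2 alone rose, and E2F3 showed no difference beyond replicate spread. The falls ranged from 17.0% for E2F7 to 34.1% for E2F5, and E2F2 reached 1.21 times its WT level. These 9 genes passed a Benjamini-Hochberg adjusted p of 0.01 in the edgeR quasi-likelihood test over 19114 genes, of which 58.3% passed, 27.6% being lower and 30.7% higher. Among the 8539 genes averaging 500 normalized counts or more, a set that includes every member, 68.1% passed, 44.3% being lower and 23.8% higher. The libraries of both groups did not overlap for 9 of the 10 members and for 71.1% of all genes tested. No member reached a fold change of 2: 0 were called at this fold by edgeR, DESeq2 or limma-voom, and 9 had an unadjusted edgeR p under 0.05. For comparison, edgeR called 22.6% of all genes (6.08% lower and 16.5% higher), and 7.96% of the genes averaging 500 normalized counts or more. The median log2 fold change was -0.38 over the members and 0.030 over all genes tested. Over the genes averaging 500 normalized counts or more it was -0.12. Scaling by library size alone raised the median of all genes from 0.030 to 0.17, and all 8 falls kept their direction under that scaling, although E2F7 then missed the threshold.

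**Figure D1:**
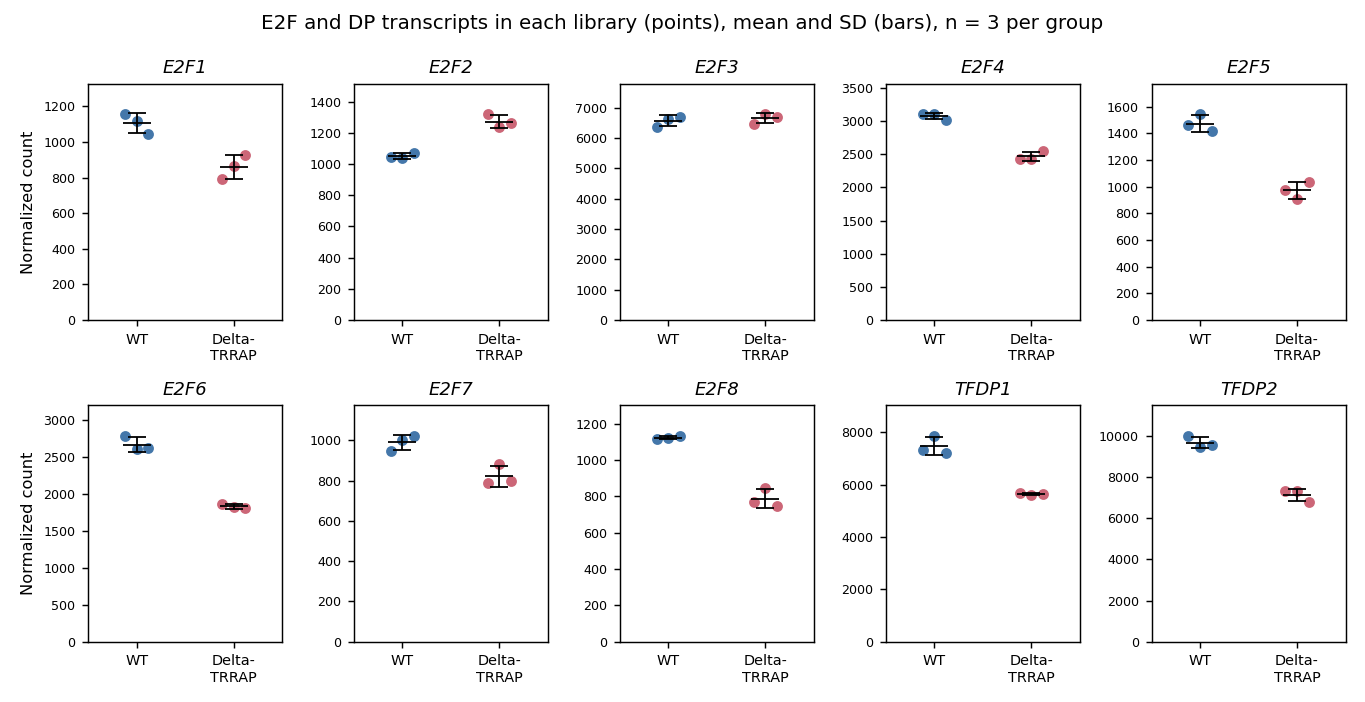
Normalized count (reads per gene after scaling for depth, vertical axis from 0) of each member in the 3 WT and 3 Delta-TRRAP libraries; points are libraries, horizontal bars the mean and error bars the SD. All 3 Delta-TRRAP points lie below all 3 WT points for 8 genes, above them for E2F2, and among them for E2F3.

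Depth was 39966818 to 42616061 gene counts per WT library, against 35076835 to 38491513 per Delta-TRRAP library, and normalized counts are counts after scaling for depth. Mitochondrial genes took 3.18% to 3.71% of the WT counts and 5.07% to 6.24% of the Delta-TRRAP counts, and the part of this difference in the results was not tested. EP400 itself had normalized counts of 4897, 4897 and 5377 in WT and 5533, 6833 and 4357 in Delta-TRRAP, which sum the tagged gene and the transgene and say nothing of the protein or the deleted part. The labels describe the cells as lymphoblasts. The 12 erythroid markers examined, typical of K562, summed to 5993 to 6055 CPM (counts scaled to a common library total) for WT and 3760 to 3872 CPM for Delta-TRRAP. The 8 lymphoid markers summed to 12.7 to 13.1 and 10.8 to 11.9 CPM, with MS4A1 at 0 in all libraries. The 10 fibroblast markers summed to 0.938 to 1.49 CPM in WT and 23.7 to 25.04 CPM in Delta-TRRAP. In the latter this was largely COL1A2, with a mean normalized count of 876, while LUM and PDGFRA were at 0 throughout.

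Among the activators, E2F1, the founding member of the family (ENSG00000101412.13, chromosome 20, 33675477 to 33686385, GRCh38), had normalized counts of 1155, 1120.4 and 1045 in WT and 790.4, 866 and 927 in Delta-TRRAP. Every Delta-TRRAP library lay below every WT library. The means were 1107 ± 56.3 and 861 ± 68.2 (SD, n = 3 each), giving a log2 fold change of -0.36 ± 0.07 (SE, 95% interval of -0.51 to -0.22) at an adjusted p of 0.000177 by edgeR. E2F2 (ENSG00000007968.7, chromosome 1, 23506438 to 23531233), another activator, went the other way. Its normalized counts were 1044, 1037 and 1070.4 in WT and 1317, 1234 and 1262 in Delta-TRRAP, with no overlap between groups. On the log2 scale it rose by 0.28 ± 0.05 (SE, 95% interval of 0.16 to 0.39), at an adjusted p of 0.000299 by edgeR.

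E2F3 (ENSG00000112242.15, chromosome 6, 20401879 to 20493714), the most abundant of the activators, had normalized counts of 6362, 6634 and 6705 in WT and 6471, 6779 and 6704 in Delta-TRRAP. Its groups overlapped, and its log2 fold change of 0.018 ± 0.05 (SE) had an edgeR adjusted p of 0.755. Its 95% interval ran from -0.087 to 0.12. Under library size scaling the value was 0.15, with an edgeR adjusted p of 0.011.

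The starts of these 3 genes and of TFDP1 are shown because each holds a letter-for-letter match to a common form of the E2F recognition sequence. Promoter windows of 300 bases (mostly before the RefSeq start, GRCh38.p14) were given for 8 of the 10 members, E2F5 and E2F8 being the others. The words searched on both strands were TTTGGCGC, TTTCCCGC, TTTGCCGC and TTTCGCGC. They occur in 3.31% of all 35116 promoter windows and in windows of 4 of the 8 members. The first share is per window, whereas a member counts if any of its windows matches, and E2F3 had 2 windows and TFDP2 had 3. In the stretches below, which all lie before the start and read 5′ to 3′ on the strand of the gene, capitals mark the matches, written on the gene's strand.
E2F1, chr20:33686386-33686535, minus strand: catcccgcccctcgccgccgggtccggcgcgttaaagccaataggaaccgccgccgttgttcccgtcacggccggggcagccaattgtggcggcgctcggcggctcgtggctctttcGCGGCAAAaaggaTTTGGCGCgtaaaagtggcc
E2F2, chr1:23531244-23531303, minus strand: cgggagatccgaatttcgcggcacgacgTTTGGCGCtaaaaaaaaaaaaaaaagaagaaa
E2F3, chr6:20401799-20401858, plus strand: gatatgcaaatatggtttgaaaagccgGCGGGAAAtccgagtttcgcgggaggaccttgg
TFDP1, chr13:113584603-113584662, plus strand: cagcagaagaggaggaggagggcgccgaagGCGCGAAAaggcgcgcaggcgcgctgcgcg
E2F1 held 2 matches on opposite strands, at 33 to 26 and at 20 to 13 bases before its start, and the other 3 genes held 1 match each. The genes with a match included a fall (E2F1, TFDP1), a rise (E2F2) and no difference beyond replicate spread (E2F3). E2F4, E2F6, E2F7 and TFDP2 had none of the words in their windows. A match is a description of the letters and was not measured as a bound site.

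The repressors that work with pocket proteins both fell. E2F4 (ENSG00000205250.9, chromosome 16, 67192155 to 67198918), the main partner of p130 in resting cells, had normalized counts of 3099.5, 3099 and 3021 in WT and 2431, 2423 and 2548 in Delta-TRRAP. The groups did not overlap and replicates lay close together, with means of 3073 ± 45.4 and 2467 ± 70.2 (SD, n = 3 each). E2F4 thus fell by 19.7%, or -0.32 ± 0.05 in log2 fold change (SE, 95% interval of -0.42 to -0.21), at an adjusted p of 3.27e-05 by edgeR. E2F5 (ENSG00000133740.11, chromosome 8, 85177154 to 85217158), its closest relative, had normalized counts of 1461, 1542.5 and 1420.4 in WT and 974, 906 and 1038 in Delta-TRRAP. This was the strongest change of the 10, with means of 1475 ± 62.2 and 972 ± 66.0 (SD, n = 3 each) and a log2 fold change of -0.60 ± 0.06 (SE, 95% interval of -0.73 to -0.47, edgeR adjusted p of 4.09e-07). Of all genes tested, 16% had a lower fold change than E2F5. Exons of RBIS on the opposite strand overlap 997 exonic bases of E2F5 in GENCODE release 44, and a long non-coding RNA overlaps 133, but the counting used strand.

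The repressors independent of pocket proteins fell as well. E2F6 (ENSG00000169016.17, chromosome 2, 11444375 to 11466177) had normalized counts of 2782, 2609 and 2617 in WT and 1868, 1820.1 and 1807 in Delta-TRRAP. The groups were far apart relative to the replicates, and E2F6 fell by 31.4%, or -0.54 ± 0.05 in log2 fold change (SE, 95% interval of -0.65 to -0.44, edgeR adjusted p of 1.51e-07). A processed pseudogene of E2F6 on chromosome X, E2F6P4, moved the other way, from a mean normalized count of 79.1 in WT to 145 in Delta-TRRAP, a log2 fold change of 0.87 ± 0.16 (SE, edgeR adjusted p of 0.000199). Its summed raw counts were low, 239 in WT and 436 in Delta-TRRAP. Reads that fit gene and pseudogene equally were discarded by the authors' alignment, so counts of both are uncertain to that extent.

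E2F7 and E2F8 carry a pair of DNA-binding domains each and are themselves classical E2F target genes that damp the activators late in S phase. E2F7 (ENSG00000165891.16, chromosome 12, 77021248 to 77065569) had normalized counts of 948, 1001 and 1020.5 in WT and 788, 880.3 and 796.5 in Delta-TRRAP. This was the smallest of the 8 falls, at -0.27 ± 0.06 in log2 fold change (SE, 95% interval of -0.40 to -0.14, edgeR adjusted p of 0.00128). It was -0.14 with an edgeR adjusted p of 0.0596 under library size scaling, and -0.17 with 0.021 under upper quartile scaling. E2F8 (ENSG00000129173.13, chromosome 11, 19224063 to 19241620) had normalized counts of 1117, 1118.5 and 1130.4 in WT and 769.8, 844 and 746 in Delta-TRRAP. Its WT libraries were nearly identical and it fell by 29.9%, or -0.51 ± 0.06 in log2 fold change (SE, 95% interval of -0.64 to -0.38, edgeR adjusted p of 1.90e-06).

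Both DP genes, whose products give E2F1 to E2F6 their stable grip on DNA, fell by similar amounts. TFDP1 (ENSG00000198176.13, chromosome 13, 113584721 to 113641473) had normalized counts of 7308, 7845 and 7213 in WT and 5667, 5592 and 5632 in Delta-TRRAP, where the replicates lay especially close together. Its log2 fold change was -0.41 ± 0.05 (SE, edgeR adjusted p of 4.01e-06). TFDP2 (ENSG00000114126.17, chromosome 3, 141944428 to 142149544) had normalized counts of 9970.4, 9463 and 9525 in WT and 7299.7, 7302 and 6771 in Delta-TRRAP. Its log2 fold change was -0.44 ± 0.05 (SE, edgeR adjusted p of 2.12e-06), and its 95% interval of -0.55 to -0.33 overlapped that of TFDP1, -0.51 to -0.30. TFDP3, a related gene outside the family list, had no counts in any library.

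**Figure D2:**
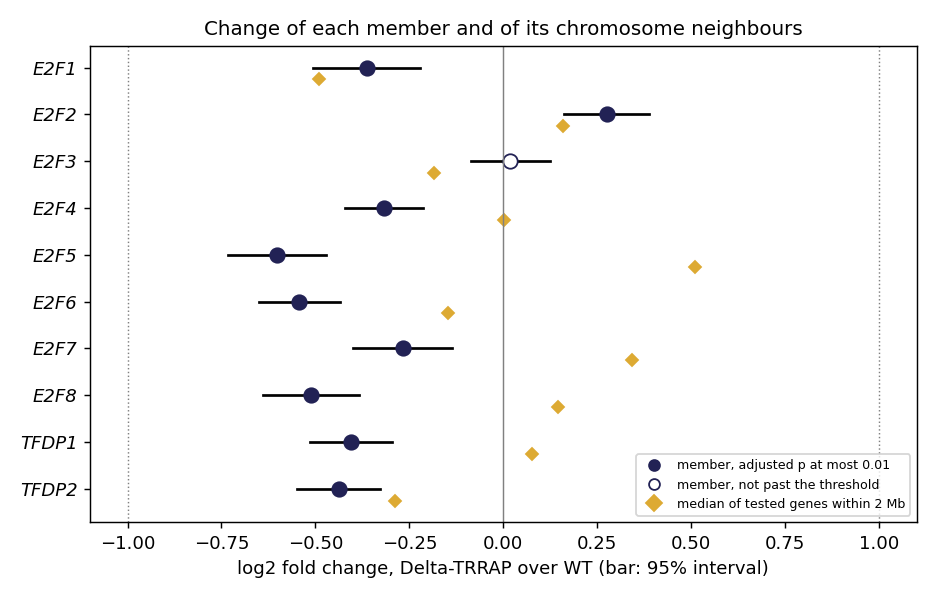
Log2 fold change of Delta-TRRAP over WT for each member (circles, with 95% intervals as bars; dotted lines mark a fold change of 2) and the median over tested genes within 2 Mb (diamonds). The members lie between -0.60 for E2F5 and 0.28 for E2F2, and E2F1 lies close to the lowered median of its neighbours.

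Chromosome neighbours were examined because the lines are clones. Around E2F1, 51 tested genes lay within 2 Mb, with a median log2 fold change of -0.49, and 43 of them were negative. By edgeR 38 of these neighbours fell and 2 rose, and E2F1 lay above 66.7% of them. The median over all tested genes of chromosome 20 was -0.35, close to the -0.36 of E2F1, whereas the chromosome medians of the other members lay between -0.087 and 0.14. The part of the region or chromosome in the change of E2F1 was not tested. Neighbours and chromosome medians were examined for the members only. The same limit therefore holds for any gene of chromosome 20 in the lists of linked genes described below. Around E2F2, 48 genes had a median of 0.16, of which 17 rose and 11 fell. The neighbours of E2F4, E2F5, E2F7, E2F8 and TFDP1 had medians of 0.0012, 0.51, 0.34, 0.15 and 0.078, none of them negative, whereas all 5 genes fell. E2F6 lay 0.40 below its neighbours' median of -0.15 over 28 genes. TFDP2, with 27 neighbours at a median of -0.29, lay 0.15 below it. Only 8 tested genes surrounded E2F3, with a median of -0.19.

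Levels between genes were compared as CPM per kilobase of exon, with exon length from GENCODE release 44. In WT the order was TFDP1 (51.2 ± 2.34, SD, n = 3), E2F3 (32.5 ± 0.897), E2F4 (22.0 ± 0.325), TFDP2 (20.9 ± 0.598), E2F6 (16.9 ± 0.619), E2F1 (10.6 ± 0.539), E2F8 (6.98 ± 0.0464), E2F5 (6.32 ± 0.267), E2F2 (4.94 ± 0.0832) and E2F7 (4.05 ± 0.152 CPM per kilobase). Neighbours in this order did not overlap between libraries, although the lowest E2F4 library (21.6) and the highest TFDP2 library (21.5) nearly met. With the length of the canonical transcript instead, E2F4 stood above E2F3 and E2F5 above E2F1 in WT, so ranks that turn on these genes depend on the transcript model. In Delta-TRRAP E2F2 moved from rank 9 to rank 7, at 5.98 ± 0.198 against 4.89 ± 0.319 for E2F8 and 4.17 ± 0.283 for E2F5 (SD, n = 3 each). With canonical lengths it moved from rank 9 to rank 8.

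The summed level of the 8 E2F genes was 104.2 ± 0.550 CPM per kilobase in WT and 88.8 ± 1.45 in Delta-TRRAP (SD, n = 3 each). That of both DP genes was 72.1 ± 2.12 and 54.1 ± 0.701. The DP sum was 0.691 ± 0.0168 of the E2F sum in WT and 0.609 ± 0.0175 in Delta-TRRAP. Each of these 3 measures had a two-sided exact permutation p of 0.1 (n = 3 each), the smallest that 3 against 3 allows, so none could reach 0.05. Within the E2F sum, activators took 46.1% ± 0.527 in WT and 53.1% ± 0.488 in Delta-TRRAP (SD, n = 3 each). E2F3 alone made up 31.2% ± 0.922 and 37.1% ± 0.468, its level being nearly the same in both groups while most others were lower. The share of E2F4 and E2F5 together was 27.1% ± 0.390 against 24.6% ± 0.727, and that of E2F6 to E2F8 was 26.8% ± 0.475 against 22.3% ± 0.757. E2F2 took 4.74% ± 0.104 and 6.74% ± 0.323, while E2F7 overlapped at 3.88% ± 0.155 and 3.78% ± 0.220 (exact permutation p of 0.6, n = 3 each). For the shares of the 3 classes the groups did not overlap and the exact permutation p was 0.1 (n = 3 each). With canonical transcript lengths the activators held 35.3% in WT and 42.2% in Delta-TRRAP, a similar difference. The order of the classes in WT was not the same, however, since E2F4 and E2F5 then held 40.7%, more than the activators, and 37.2% in Delta-TRRAP.

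**Figure D3:**
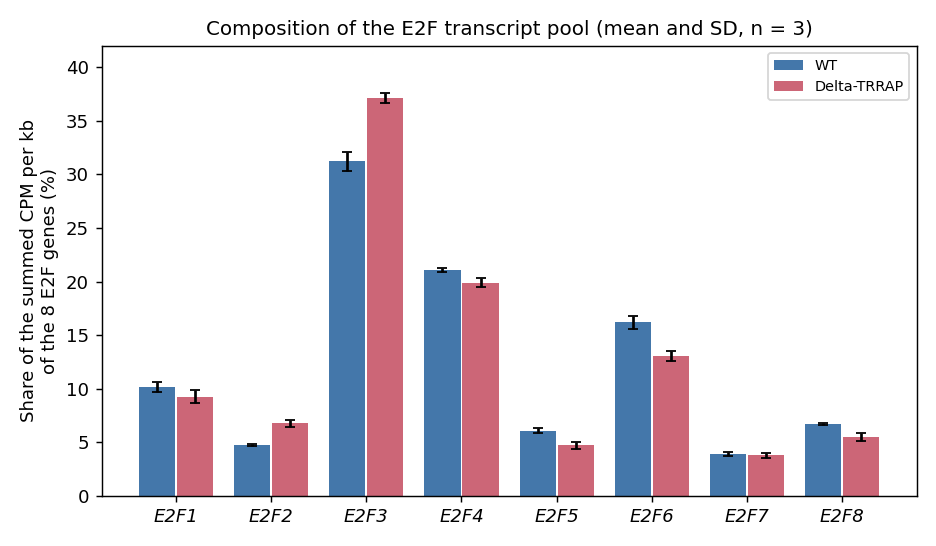
Share of each E2F gene in the summed CPM per kilobase of the 8 E2F genes (percent, axis from 0), with bars for the mean and error bars for the SD over 3 libraries per group. E2F3 is the tallest pair, at 31.2% in WT and 37.1% in Delta-TRRAP, and E2F2 is the other gene whose share is higher in Delta-TRRAP.

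Of the pocket proteins that bind E2F dimers, RBL1 (p107), an E2F target itself, fell by 35.9%, from a mean normalized count of 2759 ± 87.6 to 1769 ± 138 (SD, n = 3 each; log2 fold change -0.64, edgeR adjusted p of 1.46e-07). RBL2 (p130) rose from 2905 ± 143 to 3433 ± 169 (SD, n = 3 each; log2 fold change 0.24, edgeR adjusted p of 0.00122). RB1, the retinoblastoma gene, had a log2 fold change of 0.027 ± 0.05 (SE, edgeR adjusted p of 0.648). The MuvB core joins p130 and E2F4 in the DREAM complex, whose assembly the kinase DYRK1A promotes, and later binds B-MYB and FOXM1 in their place. Of 8 genes for these proteins 3 fell and 0 rose, and the 37.5% that fell was below the 44.3% among genes averaging 500 normalized counts or more. MYBL2 (log2 fold change -0.71), which encodes B-MYB, LIN9 (-0.51) and RBBP4 (-0.40) passed, and FOXM1 (0.17), LIN54 (0.18), LIN52 (-0.21), DYRK1A (-0.044) and LIN37 (-0.0027) did not. Without Delta-TRRAP replicate 3 the number passing was 6, and under library size scaling it was 5. The list's median of -0.13 became 0.0060 under library size scaling.

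E2F6 works with the polycomb complex PRC1.6, and of 10 such partners 4 fell and 1 rose. At 40% lower and 10% higher these shares were no larger than the 44.3% and 23.8% among genes averaging 500 normalized counts or more. CBX3 (-0.60), which encodes a heterochromatin protein, RNF2 (-0.48), an E3 ligase for histone H2A, WDR5 (-0.42) and MAX (-0.35) were lower in log2 fold change, and RYBP (0.18) was higher. The others, PCGF6 (-0.20), MGA (-0.35), YAF2 (-0.17), RING1 (0.13) and L3MBTL2 (0.054), did not pass. Of 4 germline genes that E2F6 is known to keep silent in mouse tissue, 2 were expressed enough to be tested. Both rose and 1 was called, to be read beside the 30.7% of all genes tested that rose and the 16.5% called higher. A link of these rises to the fall of E2F6 was not tested. TUBA3C, a testis tubulin gene, rose from a mean normalized count of 38.9 ± 9.35 to 503 ± 25.6 (SD, n = 3 each; log2 fold change 3.69, edgeR adjusted p of 1.47e-12), although near-identical tubulin copies make its count uncertain. STAG3, a meiotic cohesin gene, rose with a log2 fold change of 0.69 (edgeR adjusted p of 0.000622). SMC1B had no counts, and SLC25A31 had a mean normalized count of 0.678 in WT and 0 in Delta-TRRAP.

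Upstream of the pocket proteins, 14 of 16 G1 cyclin, kinase and inhibitor genes were tested, of which 11 fell and 1 rose. These were 78.6% and 7.14% of the genes tested, against 27.6% and 30.7% of all genes. Among genes averaging 500 normalized counts or more the shares were 44.3% and 23.8%. CDKN2A and CDKN2B had no counts in any library. The called falls were CCND1 (cyclin D1, log2 fold change -4.89), CDKN1C (p57, -3.67), CCNE1 (cyclin E1, -1.22) and CDK6 (-1.12), and the called rise was CDKN1A (p21, 1.16), which went from a mean normalized count of 445 ± 27.5 to 993 ± 54.9 (SD, n = 3 each). CCND1 went from 1761 ± 81.2 to 59.0 ± 19.1 normalized counts (SD, n = 3 each). CDKN1C had low counts, going from 155 ± 9.73 to 11.9 ± 5.87 (SD, n = 3 each). Called genes made up 35.7% of this list, against 22.6% of all genes and 7.96% of genes averaging 500 normalized counts or more. Among 4 genes for turnover of E2F proteins, SKP2, which encodes the substrate receptor of a ubiquitin ligase, was called lower, from 4522 ± 90.8 to 1718 ± 52.0 normalized counts (SD, n = 3 each; log2 fold change -1.40, edgeR adjusted p of 2.71e-12). CKS1B (-0.66) and CCNF (-0.40) fell, and FZR1 (-0.11) did not pass. Of these 4 genes 75% thus fell and 25% were called, to be read beside the same background shares. Of 6 coactivator genes, KAT2A (-0.49), KAT5 (-0.28) and HCFC1 (-0.27) fell, while CREBBP (-0.24), EP300 (0.0072) and TRRAP (0.047) did not pass. The 50% of coactivator genes that fell was near the 44.3% among genes averaging 500 normalized counts or more, and under library size scaling 1 of the 6 passed.

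Genes that E2F proteins are known to switch on at the entry to S phase mostly fell. Of 47 such genes, 34 fell and 3 rose (72.3% and 6.38%), with a median log2 fold change of -0.37. The median was 0.030 for all genes tested and -0.12 for those averaging 500 normalized counts or more. For comparison, 27.6% of all genes and 44.3% of those averaging 500 normalized counts or more fell. The called falls were UHRF1, a reader of newly replicated DNA (-1.30), and CCNE1. Called genes made up 4.26% of this list, against 22.6% of all genes and 7.96% of genes averaging 500 normalized counts or more. Among the listed genes that rose, POLA2 (0.50) and TK1 (0.20) were singled out after their values were seen. Of 26 genes of the later G2/M programme, which MuvB with B-MYB and FOXM1 drives, 19 fell and 1 rose, with a median of -0.43. The lowest value was -0.97, short of a fold change of 2. The smallest p-values belonged to CDC20, an activator of the anaphase-promoting complex (log2 fold change -0.87, edgeR adjusted p of 8.28e-10), and TTK, a spindle checkpoint kinase (-0.89, edgeR adjusted p of 9.29e-10). HMMR (0.37) was the rise. Of 7 apoptotic E2F targets, 5 fell and 1 rose. BBC3 (-0.67), APAF1 (-0.62), BCL2L11 (-0.47) and PMAIP1 (-0.33) were among those that fell, and TP73 (0.75), a p53 relative, was the rise. The medians of the G1/S, G2/M and apoptotic lists stayed negative with RLE, upper quartile or library size as the scaling. The S-phase list held the E2F words in promoter windows of 22 of the 40 genes matched, and the G2/M list in 3 of 21. TTTGAA, the core of the CHR element through which MuvB binds, occurred for 14 of 21 G2/M genes and 3 of 40 G1/S genes. Over all windows it occurred in 15.2%, a share per window, whereas a gene counts if any of its windows matches. Among the members it occurred in E2F3 and TFDP2. In bulk RNA, fewer cells in a phase of the cycle and less RNA per cell cannot be told apart.

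**Figure D4:**
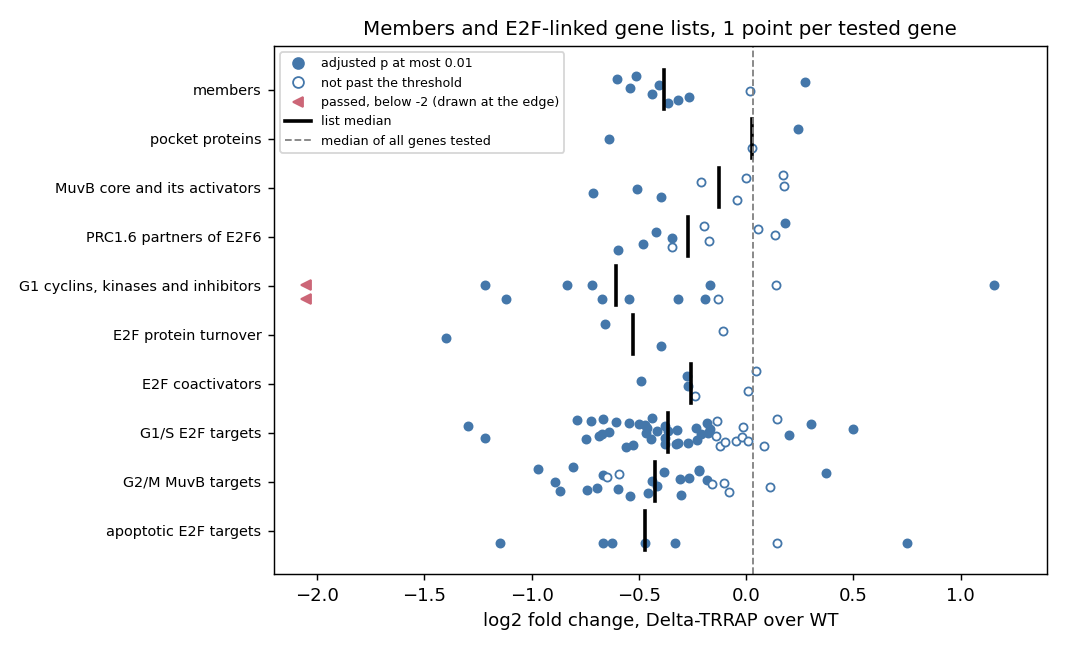
Log2 fold change of Delta-TRRAP over WT for every tested gene of the family and of 9 linked lists; filled points passed an adjusted p of 0.01, open points did not, black bars are list medians and the dashed line is the median of all genes tested. CCND1 and CDKN1C lie beyond -2 and are drawn at the edge, and the family median of -0.38 lies near the G1/S median of -0.37.

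E2F5 was the member with the largest change, and the genes whose log2 CPM followed it most closely over the 6 libraries were PDCD2L (r = 0.9985), SNRPC (r = 0.9983) and MED10 (r = 0.9982). All 3 fell, with log2 fold changes of -0.90, -0.54 and -0.59. With 6 libraries in 2 separate groups such values are a description, and 1496 of 11458 genes compared had an r above 0.95.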

How the data were processed

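Poly(A) RNA-seq libraries of K562 cells, 3 WT and 3 Delta-TRRAP, were grouped by their titles. The authors deposited raw counts per gene, made from STAR alignments to hg38 (reads with a single position only) by HTSeq 2.0.2, with reverse strand and union settings and GENCODE annotation. Totals were 35076835 to 42616061 counts. A deposited table of normalized values, with 3 further columns from another condition, and a table of the authors' fold changes and p-values were not used. Genes averaging 5 or more normalized counts (19114 of 34998 with a count) entered edgeR 4.0.16 under R 4.3.3 (TMM, quasi-likelihood F test, group as the only term). Passing means a Benjamini-Hochberg adjusted p of at most 0.01, and called adds a fold change of at least 2, the thresholds of the study, which used DESeq2. Errors are SD for counts and SE for log2 fold changes. Scripts were tested on simulated data. Exon lengths and positions came from GENCODE release 44 on GRCh38, a later release than that of the authors, and promoters from RefSeq.

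Members and lists were chosen with earlier results of these data known, and the lists rest on general knowledge of the pathway. All members were named, lists of up to 10 genes in full (apart from some genes of the target lists, not reported here), and of longer lists the called genes or the 2 smallest p-values, plus the 3 genes most like the member with the largest change. Alternatives were DESeq2 1.42.0, limma-voom (limma 3.58.1), RLE, upper quartile and library size scaling, other filters, a fold of 1.5, a replicate block and leaving out each library. Canonical transcript length and the comparison with genes of at least 500 normalized counts were added after the data were seen. Replicates are separate libraries: chi-square per degree of freedom between pairs within a group was 4.93 to 15.5, above the value for counting noise.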

Additional observations from a re-analysis of the deposited data

How the results depend on the processing

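Directions of all members but E2F3 were the same under every alternative run, and 8 or 9 members passed each time. E2F3 was -0.0060 with all genes with a count and ranged from -0.011 to 0.033 without one library, never past the threshold. E2F7 missed the threshold at -0.17 with upper quartile and -0.14 with library size scaling, since both shift all genes upward. At a fold of 1.5, 1 member (E2F5) and 6750 genes were called, and with a minimum mean of 50 normalized counts 1964 genes were called, as the rules are looser or fewer genes tested. For the MuvB list 5 genes passed with upper quartile scaling, library size scaling and a minimum of 50, and 3 to 6 without one library, where LIN54, LIN52 and FOXM1 lie near the threshold, with edgeR adjusted p of 0.0106, 0.0107 and 0.013. For coactivators 1 passed with library size scaling, and 2 to 4 without one library.

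Replicate numbers are shared between groups, but same-numbered libraries did not deviate together (r of -0.036 to -0.011 across genes), so they do not pair the libraries. With the replicate block, 9 members passed (E2F1 at -0.36, edgeR adjusted p of 0.00105) and 4184 genes were called against 4322 without it, and no member's call changed. With 3 libraries per group and 1 clone per line, p-values measure only the spread between these libraries. Depth did not limit the members, the lowest having a mean normalized count of 906.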
